A study of Mus musculus with 6 samples.

Results

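The genes described here are 10 genes of cardiac fibroblasts, all of them present among the 12072 genes of the deposited table. They form a set of 7 activation genes (Postn, Cilp, Meox1, Cthrc1, Tnc, Fn1 and Spp1) and a set of 3 resident fibroblast genes (Pi16, Pdgfra and Tcf21), and the question was how the first set compares with the second. They were picked by name, with earlier results of these same libraries known. Their values are therefore a description, and the counts over them support nothing further. RNA came from the left ventricle of 30-week-old mice on normal chow. CS-Mpc2-/- mice carry a deletion of Mpc2, which encodes a subunit of the mitochondrial pyruvate carrier, and fl/fl mice served as their controls. The sources used here do not name the driver of the deletion or say whether fl/fl mice carry it. Of 6 mice per genotype, the RNA of 2 at a time was combined, so that 3 CS-Mpc2-/- and 3 fl/fl libraries each stand for a pair of hearts.

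Resident fibroblasts of the heart keep the collagen network between the muscle cells. Many of them come from the epicardium of the embryo, where the transcription factor Tcf21 is needed for their formation, and in the adult they carry the PDGF receptor encoded by Pdgfra. After injury or under overload a share of them becomes activated: they secrete periostin, fibronectin and tenascin-C, build new matrix and may turn contractile. In the mouse, Pi16 marks a resting fibroblast state found in many tissues.

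Levels are read coverage with the total of each library set to 1000000 (ppm). Coverage per library, in units of 1000000 smallest steps, was 278 to 319 in CS-Mpc2-/- and 92.9 to 389 in fl/fl, with fl/fl replicates 1 and 2 the shallowest. The libraries numbered 3 stood apart from their groups. In the order of replicates 1 to 3, used throughout, Mpc2 itself gave 14.9, 18.2 and 46.3 ppm in CS-Mpc2-/-, against 45.2, 38.9 and 27.7 ppm in fl/fl. The library labelled CS-Mpc2-/- replicate 3 thus had Mpc2 at the fl/fl level, while fl/fl replicate 3 had the lowest Mpc2 of its group. The table holds 1 value per gene and library, so deleted exons cannot be viewed apart. The files cannot settle whether these libraries carry the right labels, and every group mean and difference takes the labels as given. Calls are given with all 6 libraries, and for the 10 genes and each list also without fl/fl replicate 3. Fibroblast identity of the tissue was covered by Pdgfra, Tcf21, Pi16, Dcn, Lum, Gsn, Dpt and Ddr2, each with coverage in all 6 libraries, beside an abundant cardiomyocyte signal.

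All 7 activation genes had a higher mean in CS-Mpc2-/- than in fl/fl. For Cthrc1 and Spp1 this was fixed in advance, because only their CS-Mpc2-/- means reached the lowest level at which genes were listed. Log2 differences, taken between the group means of log2(ppm + 1), were 1.32 to 3.52 with a median of 1.85. The median over all genes was 0.04. Of the 3 resident genes, Pdgfra differed little (0.18), Tcf21 lay at 0.95 and Pi16 at 1.23. The activation genes did not separate the genotypes library by library. Each of the 7 was low in fl/fl replicates 1 and 2 and higher in all 3 CS-Mpc2-/- libraries than in those fl/fl libraries (24.4% of the table was), but fl/fl replicate 3 lay among the CS-Mpc2-/- values for 6 of them. With all 6 libraries 0 of the 10 genes passed limma's test at an adjusted p under 0.05, and 0% of the table passed in either direction. By limma, the only tool run, 975 genes (8.08% of the table) had an unadjusted p under 0.05 and a higher mean in CS-Mpc2-/-, and 656 (5.43%) a lower one. In ventricular RNA, fewer cells of a type and less RNA per cell cannot be told apart. The fl/fl libraries in which the activation genes were low were also the shallowest, and the part of depth was not tested.

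**Figure D1:**
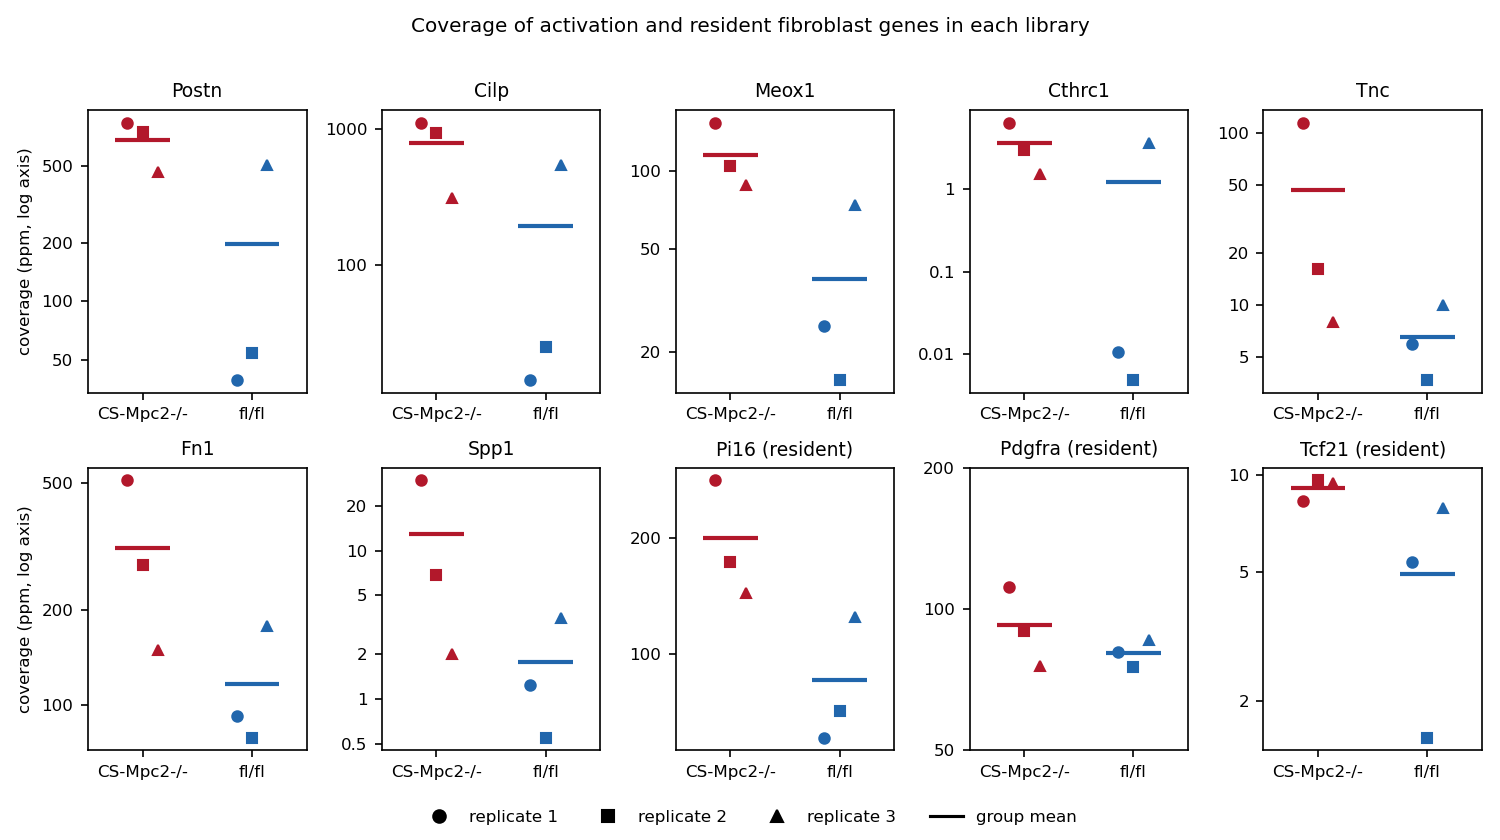
Coverage (ppm, log axis) of each gene in the 3 CS-Mpc2-/- libraries (red) and the 3 fl/fl libraries (blue). Symbols mark the replicate number and horizontal bars the group means. Postn ranges over 465 to 834 ppm in CS-Mpc2-/- and 39.4 to 502 ppm in fl/fl, whereas Pdgfra stays between 75.2 and 111 ppm in all 6 libraries.

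Promoters of the 3 activation genes with a match to TATATAA are shown with that of Pdgfra, which had an even profile. The windows come from RefSeq on GRCm38.p6, run from 250 bases before to 50 bases after an annotated start, and were found for 7 of the 10 genes (10 windows). Capitals mark TATATAA, a form of the TATA box, which was looked for after the sequences had been read. The other activation gene with windows, Spp1, had no match, nor did Pdgfra, Pi16 and Tcf21. No window was found for Meox1, Cthrc1 and Fn1.
Postn, chr3:54360857-54361156, plus strand: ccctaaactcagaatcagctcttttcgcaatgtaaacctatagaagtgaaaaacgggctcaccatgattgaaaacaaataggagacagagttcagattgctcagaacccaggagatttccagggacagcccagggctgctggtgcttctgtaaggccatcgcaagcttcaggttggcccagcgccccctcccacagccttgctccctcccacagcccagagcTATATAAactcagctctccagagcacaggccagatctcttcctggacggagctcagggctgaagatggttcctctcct
Cilp, chr9:65264930-65265229, plus strand: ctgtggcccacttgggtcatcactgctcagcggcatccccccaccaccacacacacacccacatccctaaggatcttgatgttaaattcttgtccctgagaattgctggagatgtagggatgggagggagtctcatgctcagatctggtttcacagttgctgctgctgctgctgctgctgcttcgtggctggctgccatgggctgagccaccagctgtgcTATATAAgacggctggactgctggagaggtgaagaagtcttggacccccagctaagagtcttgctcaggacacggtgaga
Tnc, chr4:64046887-64047186, minus strand: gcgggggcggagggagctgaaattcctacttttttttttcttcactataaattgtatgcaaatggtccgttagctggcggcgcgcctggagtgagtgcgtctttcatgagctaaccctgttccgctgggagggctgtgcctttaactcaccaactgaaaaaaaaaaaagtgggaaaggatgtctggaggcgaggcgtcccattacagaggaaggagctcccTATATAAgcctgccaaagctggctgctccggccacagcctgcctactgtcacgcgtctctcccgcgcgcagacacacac
Pdgfra, chr5:75152001-75152300, plus strand: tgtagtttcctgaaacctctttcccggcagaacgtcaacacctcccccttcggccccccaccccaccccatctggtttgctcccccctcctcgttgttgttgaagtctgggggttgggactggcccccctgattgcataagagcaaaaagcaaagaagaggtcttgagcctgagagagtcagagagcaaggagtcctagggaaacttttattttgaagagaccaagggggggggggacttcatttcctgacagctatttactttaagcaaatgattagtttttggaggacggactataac
In Postn, Tnc and Cilp the 7 letters began 28, 29 and 30 bases before the start, on the strand of the gene. They stood on either strand in 3 of the 10 windows of these genes and in 3.24% of all 32851 windows, and on the gene's own strand within 40 bases before the start in 0.676% of all windows. The shorter TATAAA occurred in 4 windows, of Postn (overlapping the capitals), of Tnc (the same match in its overlapping pair of windows) and of Spp1, against 13.6% of all windows. The AP-1 motif TGANTCA (7.81% of all windows), the TEAD motif GGAATG (14.7%) and the SMAD palindrome GTCTAGAC (0.213%) had 0 matches in the 10 windows, searched on both strands. The E-box CAGCTG stood in the windows of Cilp and Pi16 (16.3% of all), the RUNX motif TGTGGT in Cilp and Spp1 (16.8%), the homeodomain core TAATTA in Spp1 (5.29%), and a CArG-like pattern of CC and GG 6 bases apart in 7 windows (73.3%). These are matches of letters in short windows and say nothing about binding.

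Postn encodes periostin, a matricellular protein secreted by activated fibroblasts, and lies on chromosome 3 from 54361109 to 54391037 of mm10 (plus strand, 22 exons in its longest coding transcript). It was at 834, 744 and 465 ppm in CS-Mpc2-/- and at 39.4, 53.9 and 502 ppm in fl/fl. The groups overlapped only through their replicates 3, since fl/fl replicate 3 was above the library labelled CS-Mpc2-/- replicate 3. The means were 681 ± 192 ppm in CS-Mpc2-/- and 198 ± 263 ppm in fl/fl (SD, n = 3 each). Group means of log2(ppm + 1) differed by 2.67 ± 0.69 (SE). Within fl/fl the spread in ppm exceeded the mean in ppm.

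Cilp encodes cartilage intermediate layer protein, a secreted matrix glycoprotein, on chromosome 9 from 65265180 to 65280605 (plus strand, 10 exons). Its coverage was 1109.9, 936 and 308 ppm in CS-Mpc2-/- and 14.4, 24.8 and 542 ppm in fl/fl. It had the widest contrast of the 10 genes on the log2 scale, 3.52 ± 0.99 (SE), and also a large gap within fl/fl, where replicate 3 was 27.7 times the mean of replicates 1 and 2. Cilp coverage in the library labelled CS-Mpc2-/- replicate 3 was 0.568 times that in fl/fl replicate 3.

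Meox1, a homeobox transcription factor induced in activated fibroblasts of the mouse heart, lies on chromosome 11 from 101877510 to 101894374 (minus strand, 3 exons). It was at 154, 105 and 88.8 ppm in CS-Mpc2-/- and at 25.2, 15.7 and 74.0 ppm in fl/fl. Among the activation genes it alone had all CS-Mpc2-/- libraries above all fl/fl libraries, with a log2 difference of 1.83 ± 0.42 (SE). Tcf21 and Pi16 of the resident genes also showed no overlap, so that 3 of the 10 genes did, where 8.01% of the table was higher in CS-Mpc2-/- without overlap and 6.48% lower.

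Cthrc1 encodes a secreted glycoprotein that marks activated fibroblasts after infarction in the mouse, on chromosome 15 from 39076932 to 39087121 (plus strand, 4 exons). It was the faintest of the 10 genes, at 6.37, 3.01 and 1.50 ppm in CS-Mpc2-/- and 3.63 ppm in fl/fl replicate 3. In fl/fl replicates 1 and 2 it stood at the smallest value of the library, which means no coverage, and 78 and 50 genes of the table did so in those libraries. In the deposited unit, every listed gene had a mean of at least 700.158 in 1 of the groups or both. The fl/fl means of Cthrc1 (317.762) and Spp1 (460.867) were below it, so these genes entered the table only through CS-Mpc2-/- and had to be higher there. The log2 difference of Cthrc1, 1.32 ± 0.64 (SE), depends on the pseudocount of 1 ppm.

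Tnc encodes tenascin-C, a matrix glycoprotein that is scarce in healthy adult myocardium and appears at sites of injury, on chromosome 4 from 63959785 to 64047015 (minus strand, 26 exons). It was at 115, 16.3 and 7.94 ppm in CS-Mpc2-/- and at 5.92, 3.69 and 9.97 ppm in fl/fl. CS-Mpc2-/- replicate 1 held most of the group's signal, with 7.06 times the coverage of replicate 2 and 14.5 times that of the library labelled replicate 3. The SD of the group, 59.5 ppm, was larger than its mean of 46.3 ppm, and the log2 difference was 1.88 ± 0.70 (SE).

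Spp1, the gene of osteopontin, a phosphoprotein that binds integrins and CD44 and is made by activated fibroblasts and by macrophages, lies on chromosome 5 from 104435118 to 104441050 (plus strand, 6 exons). Its coverage was 29.7, 6.87 and 2.00 ppm in CS-Mpc2-/- and 1.24, 0.549 and 3.50 ppm in fl/fl. As with Tnc, the high value was that of CS-Mpc2-/- replicate 1, 14.8 times the library labelled replicate 3, and the group SD of 14.8 ppm exceeded the mean of 12.8 ppm. The macrophage genes Trem2 and Gpnmb, the second chosen after its values were seen, are expressed by Spp1-positive macrophages in the mouse. They were at 6.91, 3.61 and 3.89 ppm and at 4.57, 7.55 and 5.34 ppm in CS-Mpc2-/-, against 1.10, 0.00494 (no coverage) and 4.86 ppm and 3.42, 2.30 and 8.04 ppm in fl/fl. The part of macrophages in the Spp1 values was not tested.

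Fn1 encodes fibronectin, the adhesive glycoprotein on which cells assemble new matrix and which endothelial cells and macrophages also make, on chromosome 1 from 71585520 to 71653200 (minus strand, 46 exons). It was at 509, 277 and 149 ppm in CS-Mpc2-/- and at 92.5, 79.2 and 178 ppm in fl/fl. The means were 312 ± 182 ppm in CS-Mpc2-/- and 116 ± 53.4 ppm in fl/fl (SD, n = 3 each). Group means of log2(ppm + 1) differed by 1.33 ± 0.38 (SE). As for Postn, Cilp, Cthrc1, Tnc and Spp1, the library labelled CS-Mpc2-/- replicate 3 lay below fl/fl replicate 3.

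Pi16, a secreted peptidase inhibitor, lies on chromosome 17 from 29317680 to 29330593 (plus strand, 7 exons) and was at 282, 174 and 144 ppm in CS-Mpc2-/-, against 60.6, 71.1 and 125 ppm in fl/fl. Every CS-Mpc2-/- library exceeded every fl/fl library. The log2 difference was 1.23 ± 0.29 (SE), and the CS-Mpc2-/- mean was 2.34 times that of fl/fl, close to the 2.68 of Fn1. Although grouped with the resident genes, its profile over the 6 libraries was nearer to Fn1 (root mean square difference of centred log2 values 0.28) than to Pdgfra (0.61) or Tcf21 (0.59).

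Pdgfra, the receptor for platelet-derived growth factors on fibroblasts, lies on chromosome 5 from 75152292 to 75198215 (plus strand, 23 exons). It was at 111, 90.0 and 75.8 ppm in CS-Mpc2-/- and at 80.9, 75.2 and 85.8 ppm in fl/fl. The groups overlapped, and the highest library was at 1.48 times the lowest, the smallest such range of the 10 genes. Means were 92.3 ± 17.8 ppm in CS-Mpc2-/- and 80.7 ± 5.31 ppm in fl/fl (SD, n = 3 each), with a log2 difference of 0.18 ± 0.18 (SE), no larger than its error.

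Tcf21, a basic helix-loop-helix factor, lies on chromosome 10 from 22817281 to 22820174 (minus strand). It was at 8.33, 9.63 and 9.43 ppm in CS-Mpc2-/- and at 5.37, 1.54 and 7.90 ppm in fl/fl. The CS-Mpc2-/- libraries agreed closely, with a coefficient of variation of 7.68%, and all lay above fl/fl. The log2 difference of 0.95 ± 0.42 (SE) was 0.42 without fl/fl replicate 2, the library of its low value.

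Exons of 5 of the genes overlap those of other annotated genes (Tnc, Fn1, Spp1 and Pi16 with 1 gene each, Pdgfra with 3). Strand use in the counting is not given, so coverage of these pairs cannot be told apart.

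**Figure D2:**
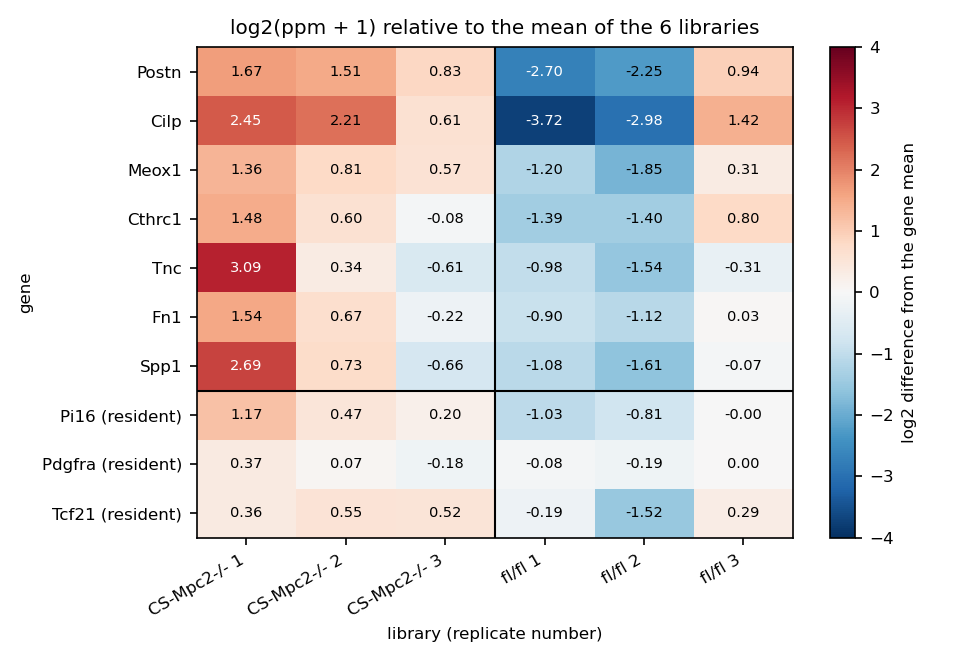
Each cell gives log2(ppm + 1) of a gene in a library minus the mean of that gene over the 6 libraries, with CS-Mpc2-/- libraries left of the line, fl/fl libraries right of it, and resident genes below the horizontal line. Postn and Cilp are at 0.94 and 1.42 in fl/fl replicate 3 and at -2.70 and -3.72 in fl/fl replicate 1, while Tnc and Spp1 reach 3.09 and 2.69 in CS-Mpc2-/- replicate 1.

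The activation genes showed differing profiles across the libraries. Postn, Cilp and Meox1 were high in the CS-Mpc2-/- libraries and also in fl/fl replicate 3. There they reached 3.62 times (Meox1), 10.8 times (Postn) and 27.7 times (Cilp) the mean of fl/fl replicates 1 and 2. Cthrc1 was high in fl/fl replicate 3 (3.63 ppm) but lower in the library labelled CS-Mpc2-/- replicate 3 (1.50 ppm). It gave no ratio to the mean of fl/fl replicates 1 and 2, because those libraries had no coverage of it. Tnc and Fn1 in fl/fl replicate 3 were at 2.07 times that mean and Spp1 at 3.92 times, and Tnc and Spp1 were high chiefly in CS-Mpc2-/- replicate 1. Tnc and Spp1 were each other's nearest gene among the 10, with a root mean square difference of 0.25, a pair singled out after the values were seen. Against Pdgfra, the difference was 1.67 for Postn and 1.31 for Tnc.

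Counted over libraries, CS-Mpc2-/- replicate 1 was the highest of all 6 for 7 of 7 activation genes and for 2 of the 3 resident genes, where it was so for 21.4% of the table. Fl/fl replicate 3 exceeded fl/fl replicates 1 and 2 for all 10 genes (38.7% of the table). The library labelled CS-Mpc2-/- replicate 3 was below the other CS-Mpc2-/- libraries for 7 of 7 activation genes and for Pi16 and Pdgfra (36.7% of the table), and below fl/fl replicate 3 for 6 of 7 activation genes and for Pdgfra (48.2%). A log2 difference of at least 1 was found for 7 of 7 activation genes and for Pi16, where 3.11% of the table reached it. Of these, Cthrc1 and Spp1 were listed only through CS-Mpc2-/- and had to be higher there.

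The ratio of each activation gene to Pdgfra in the same library sets the activation genes against a resident gene without the scaling of the library. Postn coverage was 7.50, 8.27 and 6.13 times that of Pdgfra in CS-Mpc2-/-, and 0.487, 0.717 and 5.84 times in fl/fl. By this ratio no CS-Mpc2-/- library overlapped fl/fl for Postn, though fl/fl replicate 3 came close. Cilp stood at 9.98, 10.4 and 4.06 times Pdgfra in CS-Mpc2-/- and at 0.178, 0.329 and 6.32 times in fl/fl, with overlap. Meox1 stood at 1.39, 1.16 and 1.17 times Pdgfra in CS-Mpc2-/- and at 0.312, 0.209 and 0.862 times in fl/fl. Fn1 stood at 4.58, 3.08 and 1.97 times Pdgfra in CS-Mpc2-/- and at 1.14, 1.05 and 2.07 times in fl/fl, with overlap. The ratios of Cthrc1, Tnc and Spp1 overlapped as well, so that Postn and Meox1 alone of the 7 were without overlap. The share of the table without overlap on this ratio was not computed, so that count has nothing to be set against. Pi16, itself a resident gene, was at 2.54, 1.93 and 1.90 times Pdgfra in CS-Mpc2-/- and at 0.749, 0.945 and 1.45 times in fl/fl. Summed, the 7 activation genes had 6.87, 7.64 and 4.45 times the coverage of the 3 resident genes in CS-Mpc2-/-, and 1.22, 1.20 and 6.00 times in fl/fl. The library labelled CS-Mpc2-/- replicate 3 therefore had a lower activation-to-resident ratio than fl/fl replicate 3.

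Per length of transcript, Postn and Cilp led the 10 genes in CS-Mpc2-/-. Their levels were 212 ± 60.1 and 189 ± 102 ppm per kb of the longest coding transcript (SD, n = 3). Meox1 (52.0 ± 15.4), Pi16 (50.1 ± 18.2) and Fn1 (37.5 ± 21.9 ppm per kb) formed a middle tier and Pdgfra followed at 13.5 ± 2.61. Spp1, Tnc, Tcf21 and Cthrc1 came last, at 8.52 ± 9.80, 6.52 ± 8.37, 5.11 ± 0.392 and 3.11 ± 2.14 ppm per kb. Neighbours among the first 2, the next 3 and the last 5 genes did not differ beyond their SDs. In fl/fl, Pi16 was at 21.4 ± 8.64, Pdgfra at 11.8 ± 0.777 and Tcf21 at 2.76 ± 1.79 ppm per kb. Postn at 61.9 ± 82.0 and Cilp at 46.7 ± 72.7 ppm per kb cannot be ranked against them in that group, because their SD exceeds their mean. In fl/fl replicate 1 taken alone, Postn at 12.3 ppm per kb was near Pdgfra at 11.8, and Cilp at 3.46 was near Tcf21 at 3.00.

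Across the whole fit, the adjusted p of the activation genes was 0.220 to 0.393 and that of the resident genes 0.220 to 0.689 (limma, Benjamini-Hochberg), with 0.220 also the smallest of the table. In the authors' deposited table, which gives an unadjusted p-value per gene, Meox1 had the smallest of the 10, 0.0440, and Pdgfra the largest, 0.339. Without fl/fl replicate 3, limma placed 5 of 7 activation genes past the threshold, namely Postn, Cilp, Meox1, Cthrc1 and Fn1, along with Pi16 and Tcf21, where 6.51% of the table was called higher and 4.4% lower. Tnc and Spp1 were not among them (adjusted p = 0.0647 and 0.0507). The library left out was the fl/fl library with the highest value of each of the 7 activation genes, so these calls follow from that choice. Cthrc1 had no coverage in fl/fl replicates 1 and 2, and Cthrc1 and Spp1 were listed only through CS-Mpc2-/-. Without replicate 3 of both groups all 7 activation genes and Pi16 passed, where 7.24% of the table was called higher and 5.3% lower, and Tcf21 did not (adjusted p = 0.0896). That fit rests on replicates 1 and 2 of each group. It leaves out the highest fl/fl and the lowest CS-Mpc2-/- library of each activation gene and of Pi16. These calls therefore also follow from the choice of libraries. In that fit Cilp had a log2 difference of 5.68 ± 0.22 (SE), Postn 4.07 ± 0.17 and Pdgfra 0.35 ± 0.18 (adjusted p = 0.224). Without the library labelled CS-Mpc2-/- replicate 3 alone, 0 of the 10 passed, as did 0% of the table, and the median of the activation genes was 2.64. Without CS-Mpc2-/- replicate 1 that median was 0.96, with Tnc at 0.81 and Spp1 at 0.96.

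**Figure D3:**
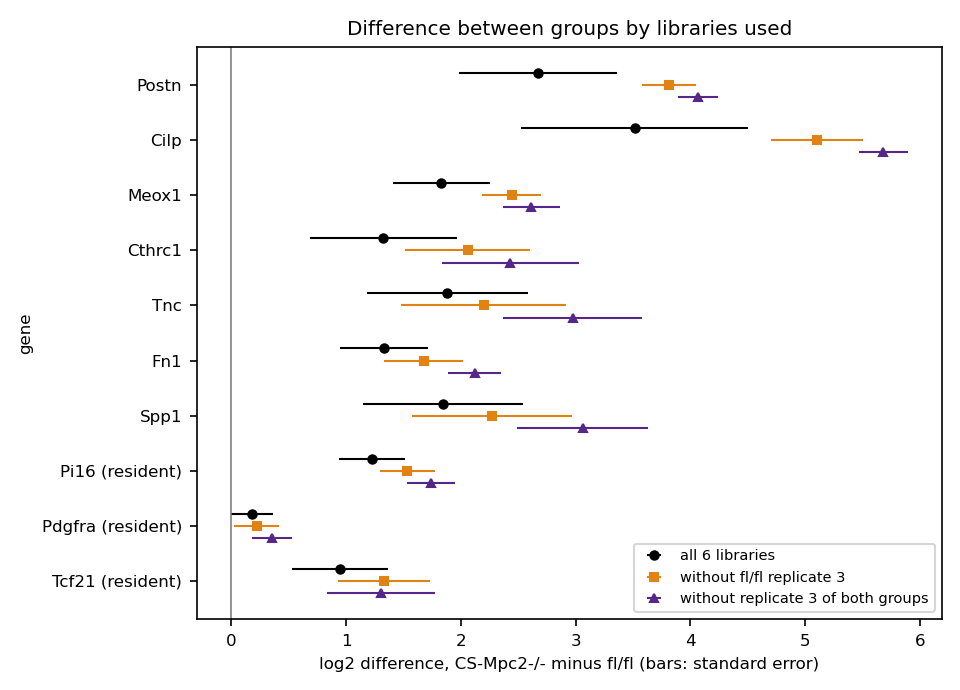
Log2 difference, CS-Mpc2-/- minus fl/fl, of each gene with its standard error, with all 6 libraries (black), without fl/fl replicate 3 (orange) and without replicate 3 of both groups (purple). Errors of Postn and Cilp are 0.69 and 0.99 with all libraries and 0.17 and 0.22 without both replicates 3, and Pdgfra stays between 0.18 and 0.35.

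Other genes linked with activated and scar-forming fibroblasts were mostly higher in mean as well. This list and those below were written with earlier results of these libraries known, so the counts over them are a description. Of 24 listed, 23 were in the table, 21 had a positive difference, and their median was 1.97, with 0 called in the fit of all 6 libraries. Wisp1, a matricellular protein, had a log2 difference of 2.08 ± 0.47, the Wnt modulator Sfrp2 1.97 ± 0.49, and Adamts2, which trims procollagen, 1.03 ± 0.25 (SE), and none of these 3 showed overlap between groups. Of the 23, 9 were higher in CS-Mpc2-/- without overlap, where 8.01% of the table was. Wisp1, Sfrp2 and Cilp2 had fl/fl means below the listing level of 700.158, entered the table only through CS-Mpc2-/- and had to be higher there. Wisp1 was at 11.6, 9.41 and 8.26 ppm in CS-Mpc2-/- and at 0.302, 1.31 and 4.32 ppm in fl/fl. Without fl/fl replicate 3, 19 of the 23 were called higher and 0 lower, where 6.51% and 4.4% of the table were. Summed coverage of the 23 was 3008, 3262 and 1951 ppm in CS-Mpc2-/- and 331, 359 and 2082 ppm in fl/fl. The library left out was thus the high one of fl/fl, and these calls depend on that choice. Markers of contractile and surface activation gave mixed values, and those named here were chosen after their values were seen. Acta2, smooth muscle actin, had a difference of -0.04 ± 0.20 and Fap, a surface protease, -0.13 ± 0.34. Tagln, an actin-binding protein of contractile cells, had 0.74 ± 0.22 with no overlap and was called higher without fl/fl replicate 3 (adjusted p = 0.0315). Fap was at 6.11, 3.91 and 9.53 ppm in CS-Mpc2-/- and at 8.31, 6.59 and 5.87 ppm in fl/fl.

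The 14 further resident fibroblast genes divided evenly, with 7 positive and 7 negative differences, a median of 0.08 and 0 called with all 6 libraries. Dcn, the proteoglycan decorin, was at 467, 449 and 409 ppm in CS-Mpc2-/- and at 178, 230 and 366 ppm in fl/fl (log2 difference 0.83 ± 0.23), and Mfap5, a microfibril protein, had 1.60 ± 0.44. Scara5, a ferritin receptor, ran the other way at 19.9, 15.4 and 23.9 ppm in CS-Mpc2-/- against 65.9, 60.8 and 28.2 ppm in fl/fl (-1.27 ± 0.30), as did Clec3b, the gene of tetranectin (-0.83 ± 0.26, errors as SE). Without fl/fl replicate 3, Dcn and Mfap5 were called higher and Scara5 and Clec3b lower, so 2 of 14 in each direction. In that fit 6.51% of the table was called higher and 4.4% lower. Gsn (-0.038 ± 0.18) and Ddr2 (-0.032 ± 0.22), named after their values were seen, had differences smaller than their errors.

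Receptors for the secreted activation proteins were listed as 12 genes, all of them measured. Of these, 11 had a positive difference, with a median of 0.44 and 0 called with all 6 libraries. Itgb8 had 1.19 ± 0.41, Itgb5 0.85 ± 0.30, Itga5, the partner of Itgb1 in the fibronectin receptor, 0.67 ± 0.24, and Itga9, a tenascin-C and osteopontin receptor subunit, 0.52 ± 0.19 (SE). Itgb8 entered the table only through CS-Mpc2-/-, as its fl/fl mean lay below the listing level, and had to be higher there. Without fl/fl replicate 3 these 4 and Cd44 (named after its values were seen) were called higher and 0 of the 12 lower, where 6.51% and 4.4% of the table were. Of the PDGF genes, the ligand Pdgfc was at 4.03, 6.30 and 4.82 ppm in CS-Mpc2-/- and 3.61 ppm in fl/fl replicate 3, with 0.697 ppm in fl/fl replicate 2 and no coverage in replicate 1. It too was listed only through CS-Mpc2-/-, and it alone of the PDGF genes was called without fl/fl replicate 3 (higher, adjusted p = 0.00831). Pdgfd (0.29 ± 0.24), Pdgfb (-0.16 ± 0.20) and the second receptor gene Pdgfrb (-0.052 ± 0.17) had small differences, and the median of the 5 PDGF genes was -0.05 with 0 called. Among 10 genes of TGF-beta ligands, receptors and Smads, the pathway that drives fibroblast activation, 6 were positive, the median was 0.19 and 0 were called. Tgfb2 had the smallest unadjusted p, at 19.2, 23.8 and 27.7 ppm in CS-Mpc2-/- against 4.39, 6.23 and 18.1 ppm in fl/fl (1.43 ± 0.39), and Tgfb1, named after its values were seen, had 0.22 ± 0.32 (SE). Tgfb2, Tgfb3 and the receptor gene Tgfbr1 were called higher and the co-receptor gene Tgfbr3 lower without fl/fl replicate 3 (adjusted p = 0.000755, 0.0311, 0.0169 and 0.0347). The shares of the table in that fit were 6.51% higher and 4.4% lower.

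By the root mean square difference of centred log2 values over the 6 libraries, the 5 genes nearest to Postn among 11484 compared were Serpina3n (0.15), Col22a1 (0.18), Atp6v0a4 (0.24), Col8a2 (0.29) and Pamr1 (0.30). Serpina3n, a secreted protease inhibitor, was at 155, 163 and 88.5 ppm in CS-Mpc2-/- and at 5.43, 8.12 and 95.0 ppm in fl/fl. Like Postn it was low in fl/fl replicates 1 and 2 only. The genes nearest to Pdgfra were Snx18 (0.027), Nfkb1 (0.045), Adamtsl5 (0.053), Il16 (0.054) and Man1c1 (0.055), all of nearly even coverage. The libraries and their depth are common to all these profiles.

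Markers of other cell types differed between the libraries as well. For the calls below, 6.51% of the table was higher and 4.4% lower without fl/fl replicate 3. Without replicate 3 of both groups these shares were 7.24% and 5.3%. Summed coverage of 12 macrophage markers was 665, 503 and 537 ppm in CS-Mpc2-/- and 383, 441 and 491 ppm in fl/fl, with 11 of 12 positive, a median of 0.43 and 0 called. Of the 12, 4 were called higher and 0 lower without fl/fl replicate 3, namely C1qa, C1qb, Trem2 and Cx3cr1, of which Trem2 and Cx3cr1 were listed only through CS-Mpc2-/-. Without replicate 3 of both groups 3 were called higher. The markers Adgre1 and Cd68 were not in the table. The 6 epicardial and mesothelial markers summed to 50.9, 42.7 and 27.0 ppm in CS-Mpc2-/- and 20.5, 27.3 and 41.4 ppm in fl/fl (5 of 6 positive, median 0.85, 0 called, 2 called higher without fl/fl replicate 3 and 3 without replicate 3 of both groups). Krt19, listed only through CS-Mpc2-/-, had no coverage in fl/fl replicates 1 and 2, and Wt1, the defining epicardial factor, had a difference of -0.50 ± 0.30 (SE). The 9 endothelial markers (median 0.06) and 8 smooth muscle and pericyte markers (median -0.05) had 0 called, and their sums were 1312 to 1636 and 1060.3 to 1195 ppm in CS-Mpc2-/-, against 1406 to 1496 and 1249 to 1672 ppm in fl/fl. Much of the difference in the smooth muscle and pericyte sum lay in 1 gene, the potassium channel subunit gene Abcc9. It was at 340, 304 and 473 ppm in CS-Mpc2-/- and at 890, 827 and 493 ppm in fl/fl. Of the 8 markers of that list, 3 had a positive and 5 a negative difference. Abcc9 was called lower without fl/fl replicate 3 (adjusted p = 0.00130), and no other gene of the endothelial or the smooth muscle and pericyte list was called. Without replicate 3 of both groups Cldn5 and Cspg4 were also called, both higher. The 10 cardiomyocyte markers summed to 57745, 65076 and 57604 ppm in CS-Mpc2-/- and to 95292, 94719 and 55474 ppm in fl/fl, with 3 of 10 positive, a median of -0.33 and 0 called. Ryr2 and Actc1 were called lower without fl/fl replicate 3 (adjusted p = 0.0269 and 0.0129), and without replicate 3 of both groups 4 were lower and 2 higher. Fl/fl replicate 3 was thus close to the CS-Mpc2-/- libraries in the cardiomyocyte sum as in the activation genes. Most of that sum was 1 gene, Myh6. Myh6 was at 37521.5, 40318.9 and 33935.9 ppm in CS-Mpc2-/- and at 65412.6, 66011.8 and 30973.6 ppm in fl/fl. The 3 positive differences were those of Tnnc1 (0.38), Myl3 (0.43) and Csrp3 (0.34), against 7 negative ones. The sum therefore largely follows Myh6 and cannot be read as cardiomyocyte content. Of 4 atrial markers only Nppa, the gene of atrial natriuretic peptide, which ventricle under load also expresses, was in the table. It was at 7834, 10961 and 6696 ppm in CS-Mpc2-/- and at 197, 175 and 7656 ppm in fl/fl, low in the same fl/fl libraries as Postn (log2 difference 3.69 ± 1.05, SE, adjusted p = 0.220). Without fl/fl replicate 3 its difference was 5.48 ± 0.21 (adjusted p = 1.54e-09), and without replicate 3 of both groups it was 5.64 ± 0.17 (adjusted p = 2.82e-10). Fl/fl replicate 3, left out of both fits, was the only fl/fl library with high Nppa, so these values follow from that choice. Sln, Myl7 and Myl4 were not listed, nor were any of the 8 lymphocyte, 4 Schwann cell and 4 adipocyte markers. The part of other cell types in the activation genes was not tested.

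**Figure D4:**
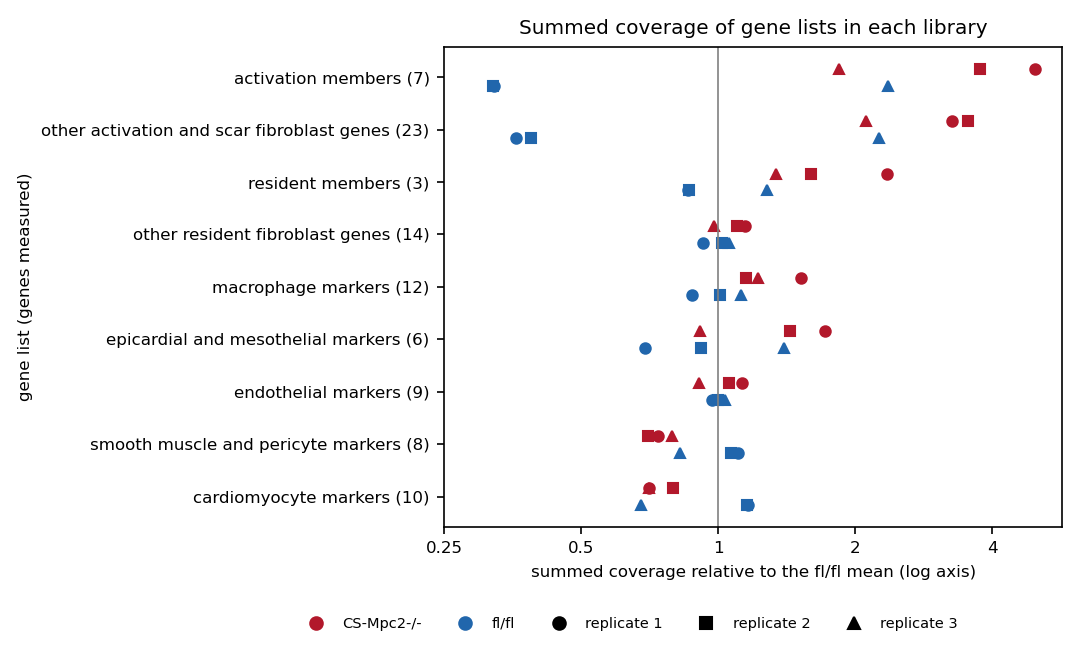
Summed coverage of each gene list in each library, divided by the mean of the fl/fl libraries (log axis), with CS-Mpc2-/- in red above fl/fl in blue and symbols for the replicate number. The activation genes span 1.84 to 4.96 times that mean in CS-Mpc2-/- and 0.320 to 2.36 times in fl/fl, while the other resident fibroblast genes lie between 0.927 and 1.14 times in all libraries.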

How the data were processed

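The authors' deposited table gives, per gene and library, a read coverage signal scaled to nearly the same library total, as read from the values. At least 99.9917% of values in each library were whole multiples (tolerance 0.01) of its smallest value, with 21 to 47 as the next multiple, which is how aligned bases behave. Reads could not be recovered, so no intervals of counting error are given. The deposited table also holds group means, their ratio and an unadjusted p-value. Per the submitters' processing notes, mapping used mm10. For the aligner, the counting step and the strand setting: not given in the sources used here. RNA was depleted of ribosomal RNA and sequenced on an Ion Torrent Proton, per the labels' protocols. Each library is a pool of different hearts, so p-values measure the spread between pools.

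Values were divided by the library total (ppm), filtered at a mean of at least 1 ppm (0 genes removed), transformed as log2(value + 1 ppm), and compared by limma 3.58.1 in R 4.3.3 (intensity trend, group as the only term, two-sided, Benjamini-Hochberg over 12072 genes, threshold 0.05). Fold changes of low genes are understated. The design named this test for such a signal. The limma step was also run on simulated data, and the outcome of that run is not given here. Positions and lengths came from GENCODE M21 (mm10), promoters from RefSeq GRCm38.p6. Members and lists were chosen with earlier results of these data known. Named genes were the 10, Mpc2, up to 4 of each list with the smallest unadjusted p, and the 5 nearest to Postn and to Pdgfra with a mean of at least 2 ppm, and any other gene named was chosen after its values were seen. A gene that the rule names is not reported here. Alternatives were 15 planned and 2 added after the data were seen.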

Additional observations from a re-analysis of the deposited data

How the results depend on the processing

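Over 17 alternatives the log2 difference of each of the 10 genes stayed positive. Whole-table calls were 0 higher and 0 lower except without fl/fl replicate 3 (786 higher, 531 lower) and without replicate 3 of both groups (874 higher, 640 lower). With single libraries left out, these counts ranged over 0 to 786 and 0 to 531, activation genes called over 0 to 5, and resident genes called over 0 to 2. Without replicate 3 of both groups, 7 activation genes and 1 resident gene (Pi16) were called and the medians were 2.97 and 1.31. For each activation gene and Pi16, the libraries left out were the highest of fl/fl and the lowest of CS-Mpc2-/-. The activation median ranged over 0.96 (without CS-Mpc2-/- replicate 1) to 2.64 with single libraries left out, and the resident median over 0.42 (without fl/fl replicate 2) to 1.33. With a pseudocount of 5 ppm the resident median was 0.56. Pdgfrb, at -0.052 with all libraries, ranged over -0.155 (without CS-Mpc2-/- replicate 2) to 0.059 (without the library labelled CS-Mpc2-/- replicate 3) with single libraries left out and was 0.076 without replicate 3 of both groups, uncalled throughout. Cthrc1 has no value at a mean of at least 5 ppm. The causes of these shifts were not tested.

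The fit with the replicate number as a replicate block gave 0 calls higher and 0 lower, and 1.85 and 0.95 as medians of the activation and resident genes. Same-numbered libraries of the groups deviated together by correlations of 0.075, -0.038 and -0.073 across genes. Libraries of different numbers gave -0.131 to 0.142. With 3 libraries per group, these values cannot tell whether same-numbered libraries share more than a number. Upper quartile and median-of-ratios scaling and rescaling without the 100 genes of highest mean (all but the first added after seeing the data) gave medians over all genes of 0.0028, 0.0047 and 0.013, against 0.041, and 0 calls. Depth was lowest in fl/fl replicates 1 and 2, where Cthrc1 was not detected.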

Other observations

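Profiles nearest to the other activation and resident genes, picked after the values were seen, differed from gene to gene. The 5 genes nearest to Cilp were Lox, Ltbp2, Comp, Wisp2 and Col12a1 (root mean square difference of centred log2 values 0.19 to 0.52), genes of matrix cross-linking, microfibrils and fibril-associated matrix. Those nearest to Fn1 were Col16a1, Mmp14, Col1a2, Krt19 and Selp (0.15 to 0.22), and after Spp1 those nearest to Tnc were Apob, Hspa1b, Hpx and Col3a1 (0.38 to 0.54). Apob and Hpx encode plasma proteins known mainly from liver. They were at 15.2 and 11.7 ppm in CS-Mpc2-/- replicate 1, and no higher than 0.700 and 0.352 ppm in any other library. The same library was the highest for all 7 activation genes. The source of the Apob and Hpx coverage, and its bearing on the Tnc and Spp1 values of that library, was not tested. Pi16 was nearest to Megf10, Vcan, Fzd2, Sfrp1 and Itgb8 (0.13 to 0.18), and Tcf21 to Ispd, Fam169a, Scin, Krt80 and Atp8a2 (0.11 to 0.15).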
